A study of Mus musculus with 3 samples.

Results

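The genes for the proteins of the cytosolic ribosome were examined in cells of the hair follicle of mouse back skin. Members were taken by symbol, as entries named Rpl or Rps with a number, the stalk genes Rplp0, Rplp1 and Rplp2, and Rpsa, leaving out pseudogenes named with -ps and the kinases named Rps6k. This gave 87 of 44625 gene entries. Of these, 76 code for a subunit of the ribosome and are called core genes (45 of the large and 31 of the small subunit), and 11 are related genes or copies that carry a similar symbol. Rpl13 was not analysed here.

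Polyadenylated RNA was sequenced from 3 libraries of 1 group, wild-type mice at postnatal day 56, when the hair cycle is in its second resting phase. No treatment or transgene is named. Per the labels, back skin was dissociated with trypsin and cells with integrin alpha6 and without Sca1 on their surface were sorted, although the protocol names an antibody to integrin alpha6 alone. The labels speak of biological duplicates while 3 libraries were deposited, so their independence is not stated, and each SD and p below measures only the spread between these libraries. The table also holds the authors' own comparison of these libraries with others, which were not analysed here. As only 1 group was available, no contrast between groups was fitted.

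Each ribosome joins a small subunit, which reads the messenger RNA, to a large subunit, which forms the peptide bond. Most subunit proteins are needed in about equal copy number, and cells hold the messages of most of these genes among their most abundant ones. Many of these messages begin with a terminal oligopyrimidine tract, a C followed by further pyrimidines, through which Larp1 and the kinase complex mTORC1 set their translation. Mutations of several members, among them Rps19, Rps20, Rpl24, Rpl27a and Rpl38, give dark skin, coat, tail or skeletal phenotypes in mice. The short, highly expressed messages have been copied back into the genome many times, so the genome holds a large number of processed pseudogenes that resemble them.

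The start sites of 8 core genes are printed because they show the tract that marks this gene family. The windows are from RefSeq on GRCm38.p6, 15 bases before to 15 bases from the annotated start, on the gene's strand, and capitals mark a run of C and T that begins with C at the annotated start.
Rps6 (chr4:86857353-86857382, minus strand): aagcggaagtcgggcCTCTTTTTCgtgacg
Rps10 (chr17:27635230-27635259, minus strand): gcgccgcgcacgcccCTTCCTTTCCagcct
Rps18 (chr17:33955651-33955680, minus strand): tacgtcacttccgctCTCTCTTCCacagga
Rps21 (chr2:180257364-180257393, plus strand): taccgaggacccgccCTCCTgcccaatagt
Rps27 (chr3:90213634-90213663, minus strand): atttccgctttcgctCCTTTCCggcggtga
Rpl15 (chr14:18270972-18271001, minus strand): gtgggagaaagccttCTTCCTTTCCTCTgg
Rpl35 (chr2:39005117-39005146, minus strand): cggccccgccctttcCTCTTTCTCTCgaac
Rpl38 (chr11:114668565-114668594, plus strand): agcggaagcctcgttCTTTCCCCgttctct

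Of the 66 start sites that RefSeq gives for 56 core genes, 13 (19.7%) began with a run of at least 5 pyrimidines led by C, against 823 of all 32851 promoters (2.51%). Starts of such a run between 5 bases before and 10 bases after the annotated start were found at 34 of the 66 sites (51.5%), against 23.2% of all promoters. The search read the gene's own strand, and the annotated start need not be the base at which transcription begins. Mitochondrial ribosomal protein genes, whose products serve a separate ribosome, had 0 of 75 sites with the run at the start, and 21 (28.0%) near it. The core genes with a run near a start had a median of 1557 TPM (counts per kilobase of gene length, scaled to the same total in every library; 32 genes) and those without a median of 1730 TPM (24 genes).

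The core genes were among the most abundant messages in every library. A mean TPM of at least 1 was reached by 82 of the 87 members, against 30.6% of all entries. Of the 76 core genes, 61 stood above 1000 TPM and 74 above 300 TPM. In replicates 1, 2 and 3, members made up 46, 48 and 47 of the 100 genes with the highest TPM. Their share of the summed TPM was 18.0%, 17.5% and 17.9%, a mean of 17.8% ± 0.278 (SD, n = 3). Their share of all counts was 9.40%, 9.55% and 10.04%. The 95% Wilson intervals were 9.38 to 9.41 for replicate 1, then 9.54 to 9.56 and 10.03 to 10.05, and cover counting error only. In such bulk samples, fewer cells of a type and less RNA per cell cannot be told apart.

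Libraries held 29283936 to 39198620 counts. All 8 marker genes of hair follicle stem cells fixed for this check had a mean TPM of at least 1. Of 4 endothelial markers none reached it, and Cdh5, Cldn5 and Emcn were at 0. It was reached by 4 of 5 sebaceous gland, 3 of 4 melanocyte, 2 of 5 immune and 1 of 6 fibroblast markers. Summed TPM in replicates 1, 2 and 3 was 134, 155 and 185 for the sebaceous gland list. It was 15.4, 13.0 and 14.5 for melanocyte, 10.2, 19.4 and 12.2 for immune and 7.96, 22.1 and 23.8 for fibroblast markers. Summed TPM of 7 suprabasal epidermis markers was 3316, 4477 and 7185 in replicates 1, 2 and 3, and that of 10 genes known to respond to tissue dissociation was 25038, 16160 and 11530.

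**Figure D1:**
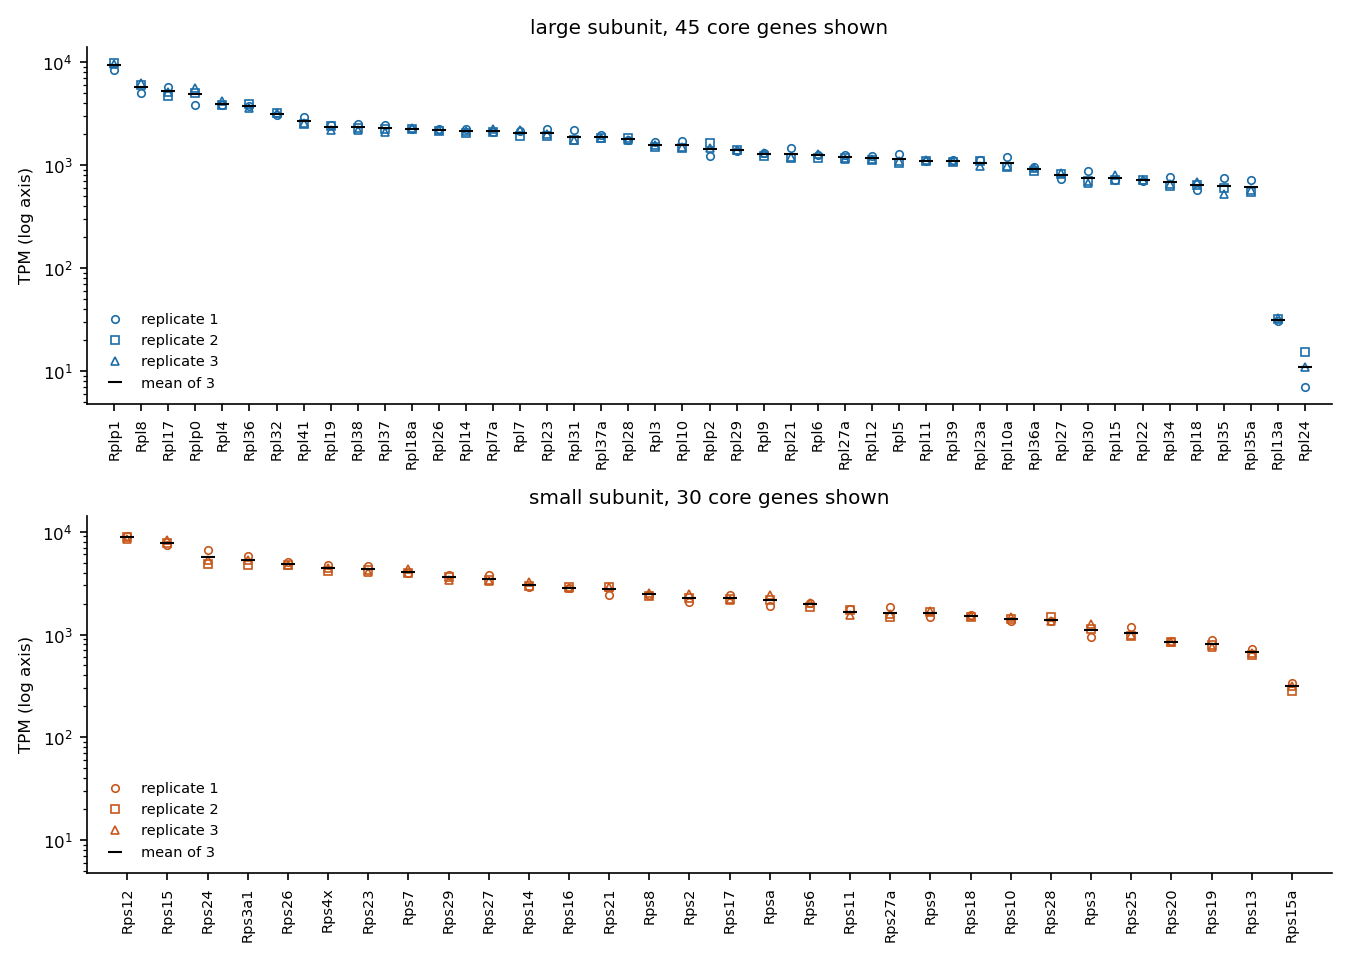
TPM of 75 of the 76 core genes on a log axis, with 1 symbol per replicate and a bar at the mean, ordered by mean within the large (top) and small (bottom) subunit. The replicates of most genes lie close together, and Rpl13a (31.7 TPM) and Rpl24 (11.02 TPM) lie far below the others.

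Rplp1, an acidic protein of the ribosomal stalk that recruits the translation GTPases, was the highest member, with 8479, 9818 and 9723 TPM in replicates 1, 2 and 3, a mean of 9340 ± 747 (SD, n = 3). Its stalk partners had lower TPM. Rplp0, the stalk base, had 3853, 5088 and 5694 TPM, and Rplp2, the other acidic protein, had 1233, 1631 and 1480 TPM. The deposited lengths were 499 bases for Rplp1 and 2072 for Rplp2. Per kilobase of coding transcript, CPM was 3586 for Rplp1, 2739 for Rplp2 and 2294 for Rplp0. All 3 stalk genes were lowest in replicate 1. Replicate 1 was 0.20 log2 units below the mean of the other replicates for Rplp1, and the same quantity was 0.48 for Rplp0 and 0.33 for Rplp2.

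Small subunit proteins filled most of the places after Rplp1. Rps12 had 8965, 8923 and 8515 TPM, and Rps15 had 7454, 7803 and 8251 TPM. Rpl8, a protein of the large subunit near the peptidyl transferase centre, followed with a mean of 5773 ± 674 TPM. The other means among the 10 highest were 5607 for Rps24, 5277 for Rps3a1, 5237 for Rpl17, 4878 for Rplp0, 4838 for Rps26 and 4418 for Rps4x. Rps12 and Rps15 did not overlap with each other over the replicates, while Rps24, with 6694, 4858 and 5271 TPM, overlapped with Rpl8, Rps3a1 and Rpl17.

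Over the core genes, the median TPM of the large subunit was 1486, 1467 and 1480, and that of the small subunit was 2401, 2269 and 2497 in replicates 1, 2 and 3. On the log2(TPM + 1) scale, the large subunit median was lower by 0.69, 0.63 and 0.75, a mean difference of -0.69 ± 0.06 (SD, n = 3). The direction was the same in all 3 replicates. With the length of the coding transcript in place of the deposited length, the difference was -0.45, and on CPM (counts scaled to the library total, not divided by length) it was -0.29. The size of this difference thus followed the length used.

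The deposited gene length bears on the order of the members. For 70 of the 87 members it equalled the union of all exons in GENCODE M21, and for Rps12, Rps23 and Rps26 it was shorter than the coding transcript used here. Over the core genes its median was 2.29 times the length of the shortest full coding transcript, with a highest ratio of 9.80 for Rps15a. Without Rpl24 and Rpl13a, mean TPM and deposited length had a Spearman rho of -0.72 across 74 core genes, a relation in which length enters both quantities. CPM per kilobase of coding transcript was less spread. The 90th percentile was 3.14 times the 10th percentile, against 6.52 times for TPM. The SD over these 74 genes of the log2 means was 0.70 by the transcript length and 1.02 by TPM. By the former measure Rps27, a zinc-binding small subunit protein, was highest, having been in place 16 by TPM. Rps15a, the lowest small subunit gene by TPM with 340, 283 and 318, came to a CPM of 1176 per kilobase of coding transcript. Rps20 is annotated with a single coding transcript of 3706 bases, and came to 359 on this scale.

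**Figure D2:**
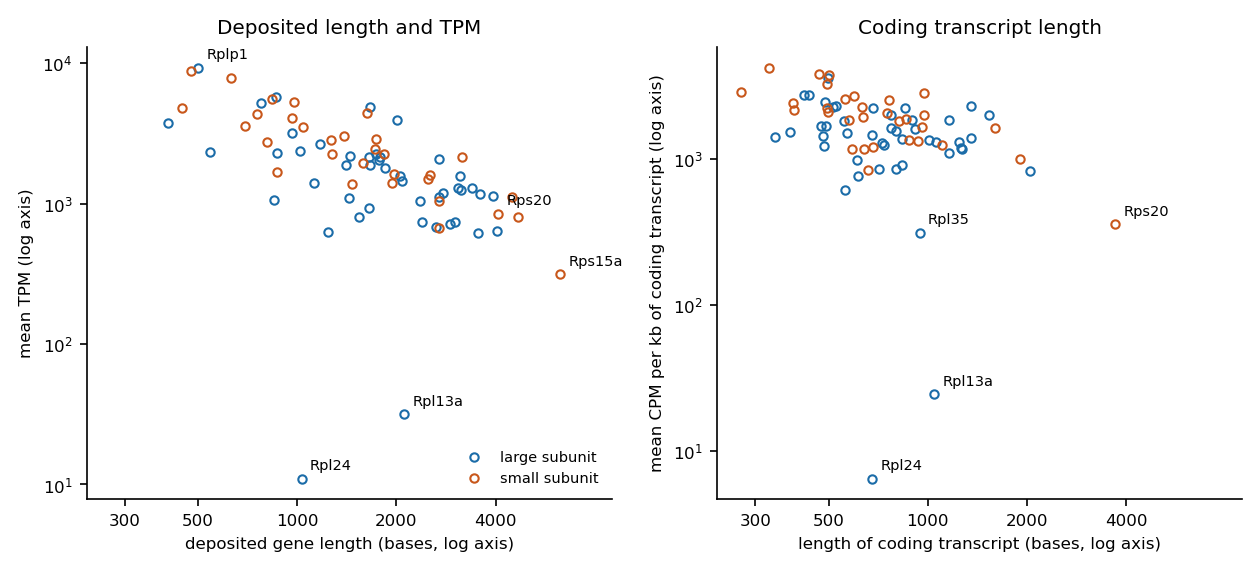
Left, mean TPM of the 76 core genes against the deposited gene length. Right, mean CPM per kilobase of the shortest full coding transcript against that transcript's length, both on log axes, with large subunit genes in blue and small subunit genes in orange. TPM falls with deposited length (Spearman rho -0.72 without Rpl24 and Rpl13a), and these 2 genes stay apart from all others in both panels.

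Rpl24 and Rpl13a stood apart from all other core genes. Rpl24 is the gene of the belly spot and tail mouse, and its protein joins the large subunit late in assembly. It had 77, 214 and 174 counts, which gave 6.94, 15.2 and 10.95 TPM. Rpl13a, a large subunit protein also studied for a role outside the ribosome, had 693, 919 and 1070 counts and 30.4, 31.7 and 32.8 TPM. The next lowest core gene, Rps15a, had a mean of 314 TPM. After it came Rpl35a with 615, Rpl35 with 626, Rpl18 with 638, Rps13 with 669 and Rpl34 with 685 TPM.

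Both genes overlap another annotated gene on the same strand. On GRCm38, Rpl24 lies at chr16:55966275-55971435, and 71.5% of its coding transcript is also exon of Gm28037 (chr16:55966343-55980721), a longer entry with 0 counts in all 3 libraries. Rpl13a lies at chr7:45125558-45128761, and 59.3% of its coding transcript is exon of Gm45713 (chr7:45125922-45136231), which also had 0 counts in all 3 libraries. Of the 76 core genes, 72 had no same-strand overlap. Besides Rpl24 and Rpl13a, the others are Rpl19, with 15.7% and a mean of 2360 TPM, and Rps10, which had 91.6% of its transcript within the annotated read-through gene RPS10-NUDT3, not analysed here, and a mean of 1408 TPM. Overlap on the opposite strand of over 20% was present for 4 core genes, Rpl5, Rpl23a, Rpl30 and Rpl35, and their means ran from 626 to 1139 TPM. The way reads in shared exons were counted is not given in the sources used here, and its part in the low values of Rpl24 and Rpl13a was not tested.

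Replicates agreed closely for most core genes. The median CV of TPM over the replicates was 6.77%, and 57 of 76 core genes were under 10%. Among 298 other protein-coding genes whose mean was 300 TPM or more, the median CV was 13.6%. Rpl29 had the lowest CV, 1.13%, with 1386, 1411 and 1415 TPM, and Rpl24 had the highest, 37.4%. Every other core gene was under 20%. Rps6, the phosphorylation target of the S6 kinases, had 2034, 1837 and 2026 TPM. Rpl5 and Rpl11, which bind the p53 regulator Mdm2 when ribosome assembly fails, had means of 1139 ± 120 and 1109 ± 21.2 TPM (SD, n = 3), and their replicates overlapped.

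Replicate 1 was the highest for 42 core genes, replicate 2 for 7 and replicate 3 for 27. Over the 13664 genes of the table that reached a mean of 1 TPM, replicate 1 was the highest for 59.6%, replicate 2 for 20.02% and replicate 3 for 20.4%. On the log2 scale, the median difference of replicate 1 from the mean of the others was 0.05 over the 82 detected members and 0.24 over all such genes, a gap of -0.20. With TMM-scaled CPM the members' median was -0.22 and that of all genes 0.00, and with upper-quartile scaling the members' median was -0.16. The sign of the members' median therefore flipped with the scaling, while the gap to all genes stayed between -0.19 and -0.23. Among core genes other than Rpl24, the difference on TPM was lowest for Rplp0 (-0.48) and highest for Rps24 (0.40). Rpl35 was also high in replicate 1, with 746, 605 and 526 TPM.

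A gene was counted as deviating in a replicate that lay over 1 log2 unit above, or over 1 below, each of the others. Of the 82 detected members, 0 deviated upward in replicate 1, against 10.6% of all genes tested, and 2 deviated downward, against 2.26%. These were Rps3a2 and Rps3a3, copies of Rps3a1 that are annotated as processed pseudogenes. No member deviated in replicate 2, where 0.527% of all genes lay above and 1.16% below, or in replicate 3, where 1.29% lay above and 1.59% below. The genes tested had a median of 14.4 TPM and the core genes 1842 TPM. No share over genes of like TPM was taken, so these counts do not separate membership from abundance.

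Much of the sequence of many core genes also occurs in other annotated genes, which include copies elsewhere and entries at the same locus. Of the 50-base stretches of each core coding transcript, a median of 56.5% occur in a transcript of another gene, with a range from 0 to 92.4%. The highest value is that of Rps10, which overlaps the read-through gene named above. How far reads can be told apart was not tested. For 47 of the 76 core genes at least 50% were shared, and for 4 genes under 10% were. Rps3 shared 2.96%.

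The table holds 253 rows named after a member with -ps, from 57 parent genes, and 145 of them had a count in some library. Together they had 3878, 18506 and 34110 counts in replicates 1, 2 and 3, which was 0.141%, 0.547% and 0.859% of the counts in members and these rows. Replicate 1 was thus the lowest, and on CPM replicates 2 and 3 were 3.96-fold and 6.57-fold higher. The members themselves were 1.02-fold and 1.07-fold higher by the same measure. The parents with the most counts in such rows were Rpl3, with 223, 1259 and 2331, then Rpl10a, Rps16, Rpl17 and Rpl14. For Rpl10a the copies made up 0.949%, 3.12% and 5.91% of the counts in parent and copies.

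Matching all annotated pseudogenes to the coding transcripts of members, untranslated ends included, found 1262 copies of 80 members. The match had at least 80% identity over at least 50% of the pseudogene's own length, so a copy may cover only part of the member. These had 10746, 43124 and 74475 counts, or 0.389%, 1.26% and 1.86% of members and copies. The gap between replicates differed with the identity of the copy. Among 203 copies of at least 98% identity, replicates 2 and 3 were 4.37-fold and 6.92-fold above replicate 1 on CPM. Among 483 copies of 80 to 90% identity, they were at 0.555 and 0.514 times replicate 1, with 699, 467 and 481 counts. The summed suprabasal and dissociation markers given above also differed between the replicates, with replicate 1 at one end, and their part in these counts was not tested. How reads with several matches were handled is not given in the sources used here.

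The relatives of the core genes differ in how far their sequence has moved from the core gene, as the first 60 coding bases show for Rps27 and Rpl39. The sequences are of GENCODE M21 transcripts on GRCm38, and capitals mark bases that differ from the core gene.
Rps27 (chr3:90212522-90213651, minus strand): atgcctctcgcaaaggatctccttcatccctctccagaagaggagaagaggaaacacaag
Rps27rt (chr9:114982366-114982739, minus strand): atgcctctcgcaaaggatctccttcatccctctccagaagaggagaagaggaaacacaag
Rps27l (chr9:66946086-66949516, plus strand): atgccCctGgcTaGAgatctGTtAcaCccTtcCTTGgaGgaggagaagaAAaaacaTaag
Rpl39 (chrX:37082520-37085402, minus strand): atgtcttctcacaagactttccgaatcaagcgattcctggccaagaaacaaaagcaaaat
Rpl39l (chr16:10170226-10174911, plus strand): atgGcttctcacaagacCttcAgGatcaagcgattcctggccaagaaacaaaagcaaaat

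Rps27rt, which the symbol rule leaves out, is identical to Rps27 over all 249 coding bases and had 53.3, 327 and 585 TPM, lowest in replicate 1 like the near-identical copies. Rps27l differs at 18 of the 60 printed bases and had 351, 324 and 392 TPM, with no such gap. Rps3a2 and Rps3a3, 99.5% and 99.0% identical to Rps3a1, had 15.7, 41.0 and 59.4 TPM and 2.57, 24.0 and 35.5 TPM. In replicate 1 both were below their values in the other replicates. Rps12l1, identical to Rps12 over its 396 coding bases, had 0 counts in all 3 libraries, and Rps12l2 had 0, 1 and 1.

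Rpl37rt, a copy of Rpl37 that the rule also leaves out, is 99.7% identical over the coding sequence and had 18.0, 86.2 and 126 TPM. Rpl36al, outside the rule as well, is 87.7% identical to Rpl36a and had 295, 270 and 291 TPM.

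Among the related members with a diverged sequence, Rps27l was the highest, followed by Rpl7l1, a protein of the large subunit family, with a mean of 116 ± 9.39 TPM. Rpl22l1, whose product can stand in for Rpl22, had 114, 50.7 and 65.0 TPM and was highest in replicate 1, while Rpl22 itself had 703, 714 and 726. Rps4l, a transcribed copy of Rps4x, had 39.4, 76.4 and 61.1 TPM and was lowest in replicate 1. The testis paralog Rpl39l had 0, 11 and 18 counts, and Rpl3l, the striated muscle paralog of Rpl3, had 1, 0 and 0. Rpl10l, a testis paralog that substitutes for the X-linked Rpl10 during meiosis, had 0 counts in every library, which allows up to 0.272 TPM in the shallowest one (3 counts per library). Rpl10 was therefore at least 6385-fold higher in each library.

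For the 7 pairs of a core gene and its -like paralog, the core gene was higher in 3 of 3 replicates. The mean difference on the log2(TPM + 1) scale was smallest for Rpl22 and Rpl22l1, 3.29 ± 0.60, and for Rps27 and Rps27l, 3.30 ± 0.18 (SD, n = 3). It was 4.16 ± 0.18 for Rpl7 and Rpl7l1 and 6.25 ± 0.57 for Rps4x and Rps4l. The differences of Rpl39 and Rpl39l (9.35), Rpl3 and Rpl3l (10.60) and Rpl10 and Rpl10l (10.62) rest on paralogs at or near 0. A two-sided exact sign-flip permutation test gave p = 0.25 for each pair, the smallest value that 3 replicates allow, and 0.25 after Benjamini-Hochberg adjustment over the 7 pairs. With 3 replicates this test cannot reach a threshold of 0.05.

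**Figure D3:**
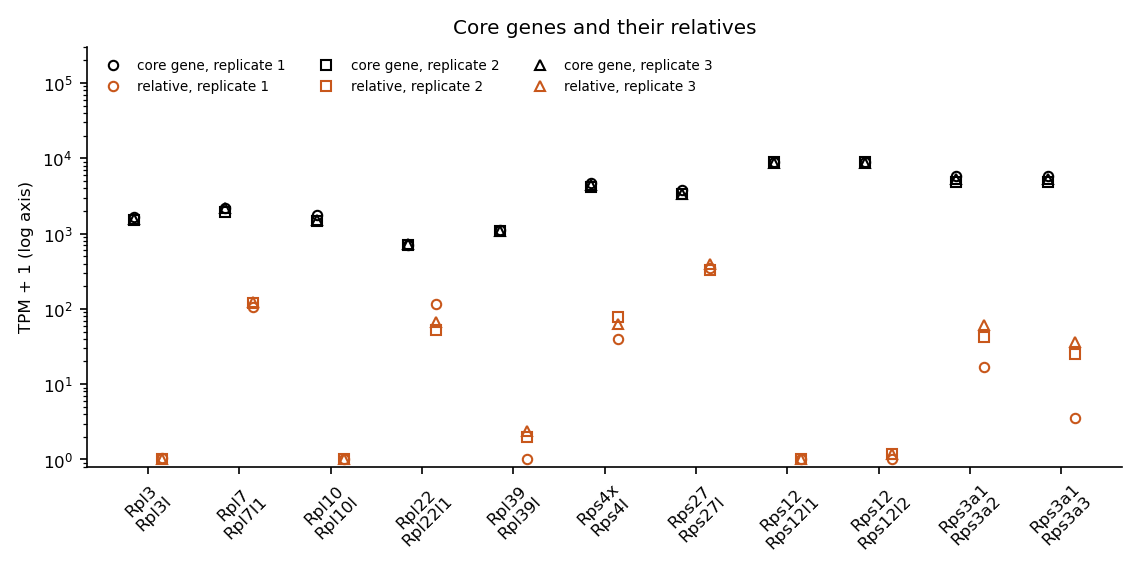
TPM + 1 (log axis) of the 11 related members (orange) beside their core genes (black), with 1 symbol per replicate. Core genes exceed every relative in each replicate, and Rps3a2 and Rps3a3 have their lowest values in replicate 1.

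Nearly all members were called higher in the authors' own comparison, where a positive value means higher in the libraries studied here. By the authors' deposited table, 81 of the 84 members with an adjusted p-value were called higher at 0.05 and 0 lower, where 23.6% of 20274 genes were called higher and 32.0% lower. Genes abundant in the libraries studied here were called higher more often in the authors' deposited table. The share was 35.1% of the genes that reached a mean of 1 TPM. It was 73.9% of the 1096 protein-coding genes other than members that reached 100 TPM, of which 7.21% were called lower. These limits on TPM used only the libraries studied here, the side of a positive value, so they favour genes called higher. The median log2 fold change over members was 2.75 in the authors' deposited table, against -0.36 over all genes and 0.25 over those that reached a mean of 1 TPM. The 3 members not called in the authors' deposited table were Rpl10a (-0.07, adjusted p-value 0.743), Rpl3l and Rpl39l. Since the other libraries are not analysed here, no replicate check of these values was made.

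The highest fold changes among members came from both subunits. Rps21, of the small subunit, had a log2 fold change of 5.63 in the authors' deposited table, Rps29 had 5.19, Rps3a3 5.02, Rplp1 4.99, Rps28 4.76, Rpl34 4.68, Rpl38 4.54 and Rps14 4.33. Lowest among the members called were Rpl15 with 0.55, Rpl10 with 0.63, Rpl13a with 0.92, Rpl7a with 1.00, Rpl5 with 1.02, Rpl31 with 1.05, Rpl4 with 1.13 and Rps6 with 1.20, again in the authors' deposited table. Of the genes with mouse skin, coat or tail phenotypes, Rps19 (809 TPM) had 3.88, Rps20 (852 TPM) 2.46, Rpl24 1.39, Rpl27a (1196 TPM) 3.32 and Rpl38 4.54 as the authors' deposited table gives them.

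The deposited fold change tended to be lower for longer coding sequences, inside and outside the gene family. Across protein-coding genes that reached a mean of 100 TPM, the Spearman rho of coding length and the log2 fold change of the authors' deposited table was -0.53 for 76 members and -0.39 for 1096 other genes, all from the same libraries. Other genes with up to 300 coding bases had a median of 2.94 in the authors' deposited table, and those with more than 4000 bases a median of 0.66. Within the bins of coding length the members' medians were 3.47 up to 300 bases (10 members), 3.05 from 300 to 500 (37), 1.88 from 500 to 800 (21) and 2.37 from 800 to 1200 (6), by the authors' deposited table. The other genes of the same bins had medians of 2.94, 2.17, 1.58 and 1.15 in the authors' deposited table. Short other genes were also nearly all called higher there, 98.6% of 71 with up to 300 coding bases in the authors' deposited table. The members' median thus lay above that of the other genes in each of these bins, and both fell from the shortest bin to the third. The bins were not matched for TPM, where the core genes had a median of 1842 and the other genes needed only 100. The part of transcript length in the members' values was not tested further.

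**Figure D4:**
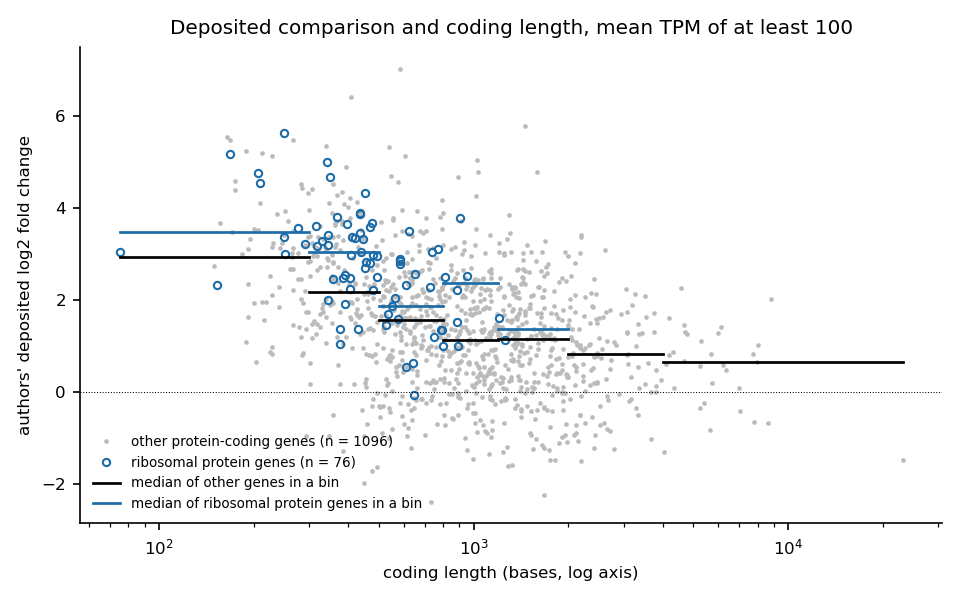
Log2 fold change of the authors' deposited table against coding length (log axis) for members (blue circles) and other protein-coding genes (grey points) of 100 TPM or more. Lines are medians per bin of coding length, and both medians fall over the first 3 bins, with the members' medians above those of the other genes up to 1200 bases.

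Translation factors and ribosome biogenesis genes, taken from lists set up for this report, were called in both directions. Of 39 translation factors, 24 were called higher and 7 lower in the authors' deposited table, with a median log2 fold change of 1.15. Over all genes that reached 1 TPM, the shares were 35.1% higher and 25.6% lower in the authors' deposited table. For protein-coding genes other than members that reached 100 TPM, they were 73.9% and 7.21% there. The median was 209 TPM for the factors and 30.1, 24.1 and 34.1 TPM for the biogenesis, mTORC1 and mitochondrial lists. The 100 TPM shares are thus nearer in level for the factors, and the factors do not exceed them. Eef1a1, which brings aminoacyl-tRNA to the ribosome, was the most abundant factor at 11587 ± 1161 TPM (SD, n = 3), and Eif5b, which joins the subunits, the least at 25.5 ± 8.17 TPM. The highest value among the factors in the authors' deposited table was 2.60 for Eif3k and the lowest -1.60 for Eif5, the GTPase activator of initiation. Of 35 ribosome biogenesis genes, 18 were higher and 6 lower in the authors' deposited table, with a median of 0.81. Npm1, a nucleolar chaperone, was the most abundant of them at 471 ± 75.5 TPM and Wdr12 the least at 5.07 ± 1.62. Nhp2, of the box H/ACA particles, had the highest value, 3.52, and Mdn1, a very large assembly ATPase, the lowest, -1.52, in the authors' deposited table.

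Regulators of the tract-bearing messages were called in both directions at shares near those of all genes. Among 17 genes of mTORC1 and of tract-binding proteins, 5 were called higher and 6 lower in the authors' deposited table, with a median of -0.08. Akt1s1, an mTORC1 inhibitor, had 4.01 and Larp4, which binds poly(A) tails, had -2.13 in the authors' deposited table. Larp1, which binds the tract, had 53.6, 42.2 and 36.7 TPM, highest in replicate 1. Cnbp was the most abundant of the list at 423 ± 16.8 TPM and Tia1 the least at 5.48 ± 6.05. Of 75 mitochondrial ribosomal protein genes tested, 60 were higher and 1 lower in the authors' deposited table, with a median of 1.58. Mrps16 was the most abundant with 210 ± 5.58 TPM, and Mrpl53 had 0 counts in all libraries. Within that list Mrps34 had the highest log2 fold change of the authors' deposited table, 5.87, and Mrpl1 the lowest, -0.90. Of the subunit and accessory genes with other symbols, Fau had 2591 ± 181 TPM and Gnb2l1, the older symbol of Rack1, 942 ± 116 TPM. Both were called higher in the authors' deposited table, with 4.03 and 2.32.

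The table also gives each gene a value for H3K27me3, a histone mark of Polycomb repression, with no stated unit, and 7 of the 87 members had a value above 0, where 8.06% of all entries did. Among protein-coding genes that reached a mean of 100 TPM, 1.79% had one. The values in the authors' deposited table were 4625 for Rpl38, 967 for Rpl36a, 613 for Rps4x, 591 for Rpl39, 382 for Rpl31, 361 for Rpl17 and 321 for Rpl36. Every one of the 7 was smaller than the median of all 3597 such genes, 7593. The 7 genes were abundant in every library, with mean TPM from 930 for Rpl36a to 5237 for Rpl17. Rpl38 had 2535, 2289 and 2208 TPM. The authors' deposited score, which combines the mark with the comparison, placed Rpl38 at rank 1 of 20274 genes, Rpl36a at rank 29 and Rpl36 at rank 47.

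By chromosome, 3 of the 4 X-linked members (Rps4x, Rpl39 and Rpl36a, but not Rpl10) had a value above 0 for the mark in the authors' deposited table, and 4 of the 83 others. Among the other protein-coding genes of at least 100 TPM, it was 3 of 31 on the X chromosome and 11 of 1065 elsewhere.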

How the data were processed

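The members and gene lists were chosen with earlier results of these data known. The authors deposited, per the file headers, read counts per gene, TPM, a gene length, an H3K27me3 signal, a log2 fold change, its adjusted p-value and a score. TPM recomputed from counts and length differed by at most 4.72e-06. Per the submitters' processing notes, FastQC, TopHat2, SAMtools, DESeq, DESeq2 and the builds mm10 and GRCm38 were named, with no versions or roles. Another 6 columns of per-sample values match no sample and were not used. From their names the deposited fold change was taken to compare with bulge libraries. Its sign was read from 2555 genes with 0 counts in all 3 replicates, of which 2555 were negative.

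Annotation was GENCODE M21, found for 44392 identifiers, and promoters were RefSeq, found for 62 of the 87 members. The coding transcript was the shortest complete one with at least 90% of the principal coding length. Levels were compared as log2(TPM + 1), which understates differences of low genes. Copies were matched with BLAST 2.17.0 (E-value limit 1e-10), and TMM factors came from edgeR 4.0.16. Calculations used Python 3.11.15, pandas 2.3.3 and scipy 1.17.1. Depth was 29283936, 35264901 and 39198620 counts, and 3 counts, the most that a 0 allows, were a CPM of 0.102, 0.0851 and 0.0765. Calls of deviating replicates were tested on simulated data, for replicate 1, where 199 of 200 changed genes were recovered and 48 of 13397 unchanged genes were called.

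Named were the 10 highest and 8 lowest core genes, the 8 of at least 10 TPM with the largest range over replicates, all related members and their core genes, all members with the mark, the 8 highest and 8 lowest called fold changes, the 5 parents with most pseudogene counts, genes of mouse skin phenotypes, the stalk, Rps6, Rpl5, Rpl11 and the extremes of each other list. Other members were named after their values were seen. Alternatives changed the pseudocount, scaling, length, limits, members and replicates. Some items are not reported here.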

Additional observations from a re-analysis of the deposited data

How the results depend on the processing

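Apart from the pairs with paralogs, 14 alternative values moved beyond the spread between replicates, and the others stayed within it or, for a count, within 1.5 times. The 7 pairs kept their direction under the alternatives run. With a pseudocount of 0.1 the pair differences grew where the paralog is near 0, to 13.73 for Rpl3 and Rpl3l, 13.94 for Rpl10 and Rpl10l and 10.98 for Rpl39 and Rpl39l. The TPM share of 17.8% became 20.6% without mitochondrially encoded genes and genes under 200 bases and 22.2% by coding transcript length, and the count share of 9.66% became 10.2% of a total without mitochondrially encoded genes. The difference of subunit medians (-0.69) was -0.59 over detected members with relatives, -0.29 on CPM, -0.45 by coding transcript length and -0.61 without Rpl24 and Rpl13a. The spread among core genes (1.47) was 1.28 on CPM, 1.33 by coding transcript length, 1.02 without Rpl24 and Rpl13a and 0.70 with both changes. The median ratio of replicate 1 to the others (0.05, within the replicate spread) changed sign, to -0.16 with upper-quartile and -0.22 with TMM scaling. The causes of these moves were not tested. The pseudogene share (0.516%) was 1.17% with all matching pseudogenes. It ranged from 0.344% without replicate 3 to 0.703% without replicate 1. The settings by coding transcript length and without Rpl24 and Rpl13a, and those leaving a replicate out of the ratio, were chosen after seeing the data. Leaving out a replicate kept the TPM share between 17.7% and 18.0%, the count share between 9.47% and 9.79% and the subunit difference between -0.72 and -0.66, and the core gene stayed higher in all 7 pairs. Calls in the authors' deposited table were 79 higher at an adjusted p-value of 0.01, 78 with a log2 fold change of at least 1 and 75 without the relatives, and 0 lower in each. No paired analysis between groups of samples was possible because all samples belong to 1 group. The 7 pairs compared genes within each library. How depth bears on members whose 50-base stretches are shared with other genes was not tested.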

Other observations

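Introns of ribosomal protein genes host many small nucleolar RNAs, which guide the modification of ribosomal RNA. The annotation places 57 of them inside 29 members, and 30 of these had a count in some library. They had 1230, 325 and 272 counts in replicates 1, 2 and 3, with 30, 22 and 19 of them counted. Of the 1498 other annotated small nucleolar and Cajal body RNA genes, 212 had a count in some library. They had 3267, 1203 and 1473 counts, with 205, 76 and 71 of them counted. Replicate 1 was thus the highest for both sets, although it had the fewest counts in all.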
